A study of Homo sapiens with 18 samples.

Results

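MSTO-211H cells treated with piroxicam (P) for 24 h were set against cells treated with the same drug for 8 h. Both sides of this comparison carried the drug, and the late side had both the longer exposure and the longer time in culture. The P arrays alone cannot tell exposure from time in culture. The comparison sets a late stage of treatment against an early one. The arrays were chosen by their titles, 3 of P at 24 h and 2 of P at 8 h, which are 5 of the 18 arrays of the study. MSTO-211H is an established line of human malignant mesothelioma, a tumour of the lining of the body cavities, and a single line stands here for that tumour. Cells of every group were seeded 16 h ahead and then kept with piroxicam at 760 µM (P), with cisplatin, a platinum drug that damages DNA, at 4.5 µg/mL (C), with both (P/C) or without drug (untreated), and RNA was taken after 8 h or 24 h. The groups held 3 arrays for P 24 h, 2 for P 8 h, 3 for C 24 h, 2 for C 8 h, 2 for P/C 24 h, 2 for P/C 8 h, 2 for untreated 24 h and 2 for untreated 8 h. The study chose the times as one before and one after apoptosis could be seen in cells given C or P/C. Its apoptosis figures do not include cells given piroxicam alone. It describes its replicates as biological.

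Piroxicam belongs to the non-steroidal anti-inflammatory drugs and blocks the cyclooxygenases, the enzymes that start the synthesis of prostaglandins from arachidonic acid. A dividing cell first loads the MCM helicase onto its replication origins, then copies its DNA in S phase and separates the copies in mitosis. The genes for these steps are switched on in turn, by E2F factors ahead of S phase and later by MuvB complexes and FOXM1 ahead of mitosis. Cells that lack amino acids or meet other stress translate more of the transcription factor ATF4, which raises genes for amino acid synthesis, amino acid import and the charging of tRNA.

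Values are log2 signals of probe sets as deposited, so a difference of 1 is a doubling. A log2 signal of 6.64 corresponds to a signal of 100. A group mean below 4 is called near background here, since 67.9% of all probe sets had a mean below 4 over the P arrays, and the size of a change that ends there is not read. A probe set was called higher or lower where limma's adjusted p did not exceed 0.05 and the log2 fold change was 1 or more in size, from a fit with 1 mean for each of the 8 groups, whose standard errors (SE) are given. A gene is represented by its tested probe set with the highest mean signal. On arrays of whole cultures, fewer cells of a kind and less RNA per cell cannot be told apart.

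The 3 P 24 h arrays correlated with each other at 0.953 to 0.971 over the tested probe sets and the 2 P 8 h arrays at 0.948, while arrays of different times had 0.844 to 0.876. Of 13 mesothelial and mesothelioma markers with a probe set, 2 had a signal of at least 100 on all 5 P arrays, the keratins KRT8 and KRT18. Another 10 lay below 4 on all of them, among them MSLN (mesothelin), with a mean log2 signal of 2.18 at 24 h and 2.20 at 8 h, and CALB2 (calretinin), with 3.43 at 24 h and 3.54 at 8 h. WT1, a transcription factor of mesothelial cells, lay above that level, with 4.48, 4.18 and 4.22 at 24 h, against 5.17 and 4.88 at 8 h, and below a signal of 100. Most markers of mesothelial cells were thus near background, and the label rests on the submitters. None of 11 leukocyte and erythroid markers and none of 11 stromal and endothelial markers reached 100 on all 5 arrays, and the highest value of any of them was 5.33, for ACTA2, smooth muscle actin. Over all 18 arrays, 13 correlated best with an array of another group, among them both P 8 h arrays, each with the P/C 8 h array of its own number, and both untreated 24 h arrays, with arrays of 8 h (P 8 h replicate 3 and C 8 h replicate 1). The array labelled C 24 h replicate 1 had a correlation of 0.885 with the nearer array of its group, while the other 2 had 0.963 with each other, and it was closest to untreated 24 h replicate 1. The 2 P/C 24 h arrays had only 0.864 with each other, replicate 1 being closest to C 24 h replicate 3 and replicate 3 to P 24 h replicate 1, so which of them stands apart, and whether labels were crossed, cannot be told apart here. Within the fit, these arrays enter the comparison of the P arrays only through the shared estimate of the spread. Like all 18 arrays they also count in the filters and in the choice of each gene's probe set. Both were left unchanged in the fit without the replicate 1 arrays. Without the replicate 1 arrays of C 24 h and P/C 24 h 45 genes were called higher and 143 lower, against 32 and 135 with them.

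Under piroxicam more genes had lower signals at 24 h than at 8 h than had higher signals, and DNA replication and mitosis held the most lower calls of the gene lists. Of 3057 probe sets tested, 259 were called between P 24 h and P 8 h (8.47%), 42 higher (1.37%) and 217 lower (7.1%). Of 2203 genes, 167 were called (7.58%), 32 higher (1.45%) and 135 lower (6.13%). Of the lower genes 45 were in at least 1 of 28 gene lists of pathways and complexes and 90 in none, and of the higher genes 11 were in a list and 21 in none, so the lists describe a minority of the calls. The P 24 h arrays and the P 8 h arrays did not overlap in any of the 167 called genes, whereas all 24 h arrays lay below all 8 h arrays in 37.4% of the tested genes and above them in 18.2%.

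The balance between higher and lower calls depended on the scaling of the arrays. Over all tested probe sets the log2 fold change had a median of -0.16 under P and 0.01 in untreated cells, and the medians of the tested probe sets were 7.77, 7.58 and 7.63 on the P 24 h arrays, against 7.79 and 7.84 on the P 8 h arrays. On the deposited scale 16.2% of the called probe sets were higher. After quantile normalization 66 were higher and 158 lower (29.5% higher), and with each array centred on its median 76 were higher and 145 lower (34.4% higher), with 200 and 187 of the 259 probe sets called again and none in the opposite direction. The calls also rested on the 2 P 8 h arrays. Without P 8 h replicate 1 the counts of genes were 10 higher and 69 lower, and without P 8 h replicate 3 they were 6 higher and 49 lower. Without P 24 h replicate 3 they were 17 higher and 96 lower.

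**Figure D1:**
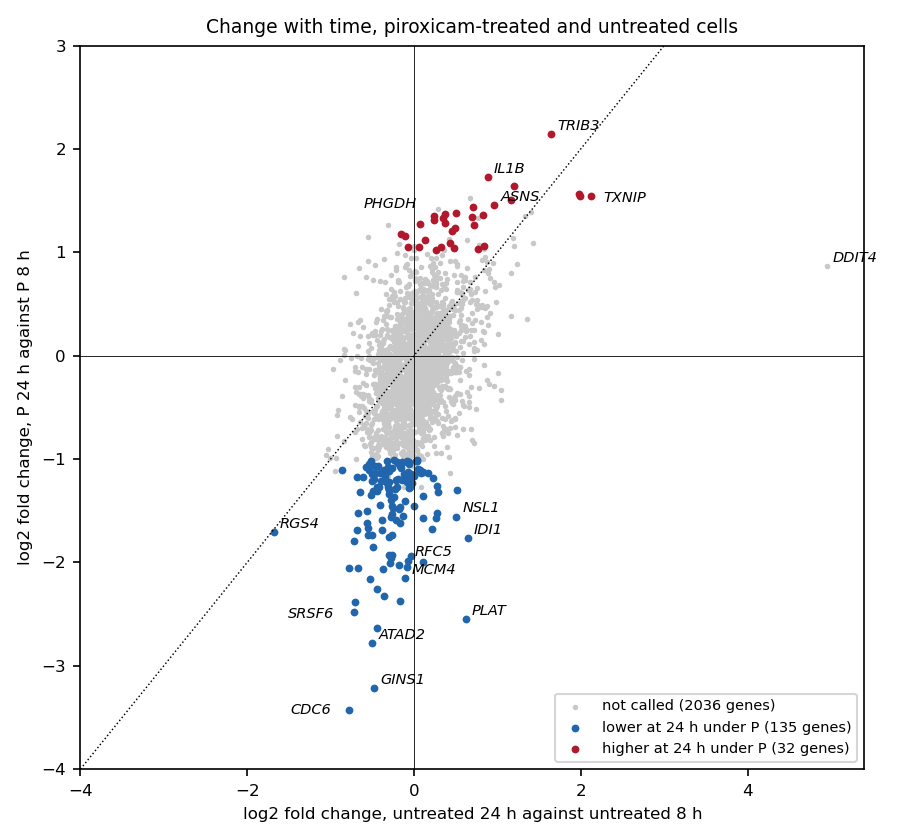
Log2 fold change of each of 2203 tested genes between P 24 h and P 8 h (vertical axis) and between untreated 24 h and untreated 8 h (horizontal axis), 1 point per gene, with the dotted line marking equal change. Of the 135 lower genes (blue) 113 also have negative values in untreated cells, 1 of them beyond -1, and 29 of the 32 higher genes (red) also have positive values there.

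The DNA replication list lost signal between the times. Of its 26 tested genes 17 were called lower and none higher (65.4%, against 6.13% of all tested genes). In 23 of them all P 24 h arrays lay below all P 8 h arrays, against 37.4% of all tested genes. The median log2 fold change of the list was -1.24, against -0.15 over all tested genes, and -1.14 after quantile normalization. In untreated cells the same genes had a median of -0.17 between the times. Without P 8 h replicate 1, 10 of the 26 were called lower, and without P 8 h replicate 3, 9 were.

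The promoter windows of 4 falling replication genes are shown, chosen among those that held the letters of an E2F element. They run from 250 bases before to 50 bases after the start of the gene (RefSeq, GRCh38.p14), and the capitals mark a match to an E2F element, searched on both strands as TTTCCCGC, TTTCGCGC, TTTGCCGC or TTTGGCGC. CDC6 lies at chr17:40287629-40287928 (plus strand), GINS1 at chr20:25407423-25407722 (plus strand), GINS2 at chr16:85688905-85689204 (minus strand) and RFC3 at chr13:33817899-33818198 (plus strand).
CDC6: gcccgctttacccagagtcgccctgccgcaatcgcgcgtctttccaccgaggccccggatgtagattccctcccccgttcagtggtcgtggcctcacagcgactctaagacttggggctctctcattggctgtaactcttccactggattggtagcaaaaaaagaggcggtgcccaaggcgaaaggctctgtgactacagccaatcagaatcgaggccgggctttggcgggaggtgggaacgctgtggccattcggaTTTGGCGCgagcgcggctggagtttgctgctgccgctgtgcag
GINS1: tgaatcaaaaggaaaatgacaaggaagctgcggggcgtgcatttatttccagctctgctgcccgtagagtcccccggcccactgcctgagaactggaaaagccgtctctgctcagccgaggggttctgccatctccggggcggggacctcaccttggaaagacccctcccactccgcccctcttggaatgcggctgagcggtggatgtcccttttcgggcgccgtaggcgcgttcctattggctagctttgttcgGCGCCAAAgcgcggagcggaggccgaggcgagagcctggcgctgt
GINS2: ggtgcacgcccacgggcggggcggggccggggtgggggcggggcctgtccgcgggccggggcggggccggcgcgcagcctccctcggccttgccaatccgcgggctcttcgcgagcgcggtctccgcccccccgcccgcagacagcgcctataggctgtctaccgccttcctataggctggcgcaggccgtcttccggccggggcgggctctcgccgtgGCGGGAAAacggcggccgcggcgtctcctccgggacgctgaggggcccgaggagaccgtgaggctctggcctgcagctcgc
RFC3: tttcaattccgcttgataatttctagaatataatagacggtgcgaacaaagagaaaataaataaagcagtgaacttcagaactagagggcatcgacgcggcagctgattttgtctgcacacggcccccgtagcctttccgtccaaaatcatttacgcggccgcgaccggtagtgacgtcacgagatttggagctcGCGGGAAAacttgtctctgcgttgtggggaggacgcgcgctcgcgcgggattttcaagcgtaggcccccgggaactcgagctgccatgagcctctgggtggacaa
Of the 17 lower replication genes 15 had a window, and 8 of these windows (53.3%) held a match, those of CDC6, GINS1, GINS2, MCM2, MCM3, MCM6, PCNA and RFC3. Of all 26 tested replication genes, called or not, 22 had a window and 9 of these held a match (40.9%). The share was 3.33% of all 27305 promoter windows, 6.42% of the windows of tested genes and 18.6% of those of all 135 lower genes. It was 7.14% of the windows of the higher genes. A match describes the letters in the window and is not a measured binding site. FEN1, GMNN, ORC6, RFC2, RFC5, RRM1 and RRM2, which also fell, had no match in their windows.

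Genes of origin licensing and its control were mostly called lower. CDC6, which loads the MCM helicase onto origins, had log2 signals of 3.25, 3.15 and 3.01 on the P 24 h arrays, against 6.62 and 6.50 on the P 8 h arrays. The 24 h arrays ended near background, so the log2 fold change of -3.43 (SE 0.53, adjusted p = 0.00105) is called but its size is not read. GMNN, which encodes geminin, the inhibitor of relicensing, had 5.28, 5.93 and 5.26 at 24 h, against 7.94 and 7.81 at 8 h under P (log2 fold change -2.39, SE 0.32, adjusted p = 0.000544). In untreated cells GMNN had 7.74 and 8.04 at 24 h, against 8.64 and 8.57 at 8 h, so the lowest values of the 4 groups were those of P 24 h. The difference between the time changes of GMNN, P minus untreated, was -1.67 and was not called (adjusted p = 0.192). It was called in 3 of 20 alternatives. Of the MCM helicase subunits, MCM4 had 5.38, 5.52 and 5.68 under P at 24 h, against 7.75 and 7.61 at 8 h (log2 fold change -2.15, SE 0.30, adjusted p = 0.000724). MCM2, MCM3, MCM5 and MCM6 were called lower as well, with log2 fold changes between -1.48 (MCM5) and -1.03 (MCM2). MCM7, the remaining tested subunit, had -0.60 and was not called. ORC6, a subunit of the origin recognition complex, fell by 1.22 on the log2 scale, while ORC5 of the same complex had -0.39 and was not called.

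Genes of the helicase activators and of the clamp loader were mostly called lower as well. GINS1, a subunit of the GINS complex that turns MCM into an active helicase, had log2 signals of 3.92, 4.74 and 4.15 on the P 24 h arrays, against 7.39 and 7.58 on the P 8 h arrays (log2 fold change -3.21, SE 0.44, adjusted p = 0.000644). Its partner GINS2 had 4.0, 5.39 and 4.53 at 24 h, against 7.40 and 7.14 at 8 h (log2 fold change -2.63, SE 0.40, adjusted p = 0.000967). For both genes every 24 h array lay more than 1 log2 unit below every 8 h array. RFC3, RFC5 and RFC2, subunits of the clamp loader, had log2 fold changes of -2.38, -1.98 and -1.94, and RFC4 had -0.67, which was not called. RFC3 had 5.94, 6.87 and 5.77 at 24 h, against 8.57 and 8.57 at 8 h, and its second probe set had a log2 fold change of -3.09. PCNA, the sliding clamp itself, had 8.63, 9.05 and 8.42 at 24 h, against 9.80 and 9.83 at 8 h, a smaller fall of 1.12 on the log2 scale (adjusted p = 0.0083).

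Genes for the later steps of DNA synthesis were mixed. FEN1, the nuclease that trims Okazaki fragments, had log2 signals of 5.30, 6.51 and 6.17 at 24 h, against 8.35 and 7.97 at 8 h under P (log2 fold change -2.16, SE 0.39, adjusted p = 0.00273). RRM2, the small subunit of ribonucleotide reductase, which makes deoxynucleotides, fell by 1.93 on the log2 scale and RRM1, the large subunit, by 1.13. POLD2 and POLD3, subunits of DNA polymerase delta, had 0.30 and -1.0 and were not called, and neither were PRIM1, RPA1, RPA3 and DUT. RPA1, a subunit of the protein that coats single strands, had -0.78 at an adjusted p of 0.017 and missed the fold limit.

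**Figure D2:**
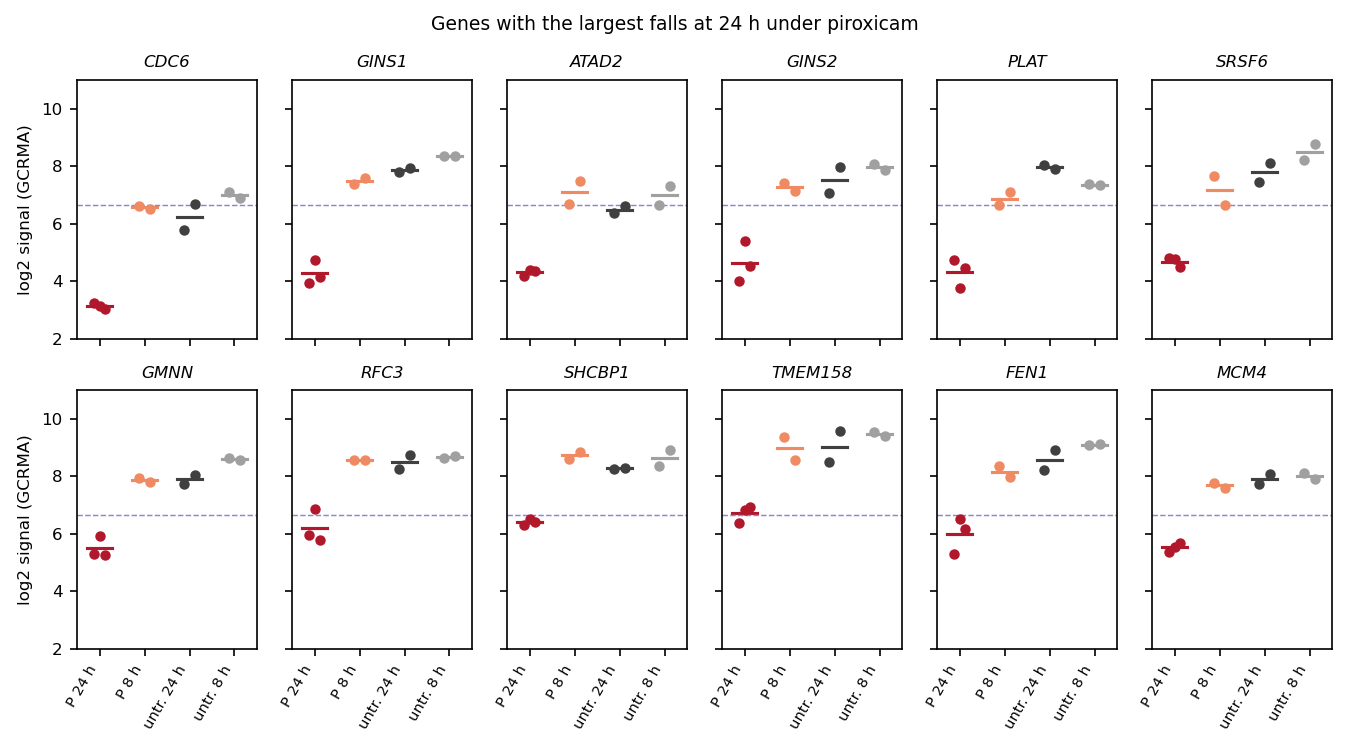
Log2 signal of the 12 genes with the largest called falls between P 24 h and P 8 h, 1 point per array and a bar at the mean of each group (P 24 h, P 8 h, untreated 24 h, untreated 8 h). The dashed line marks a signal of 100 (log2 6.64), and in each panel the P 24 h arrays are the lowest points, with CDC6 at 3.01 to 3.25.

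The remaining large falls were in genes of other roles. ATAD2, a chromatin ATPase and coactivator of E2F and MYC, had log2 signals of 4.17, 4.40 and 4.35 on the P 24 h arrays, against 6.68 and 7.49 on the P 8 h arrays (log2 fold change -2.78, SE 0.39, adjusted p = 0.000808). PLAT, which encodes tissue plasminogen activator, had 4.72, 3.76 and 4.45 at 24 h, against 6.63 and 7.10 at 8 h (log2 fold change -2.55, SE 0.65, adjusted p = 0.0166). In untreated cells PLAT had 8.03 and 7.91 at 24 h, against 7.37 and 7.34 at 8 h, so the untreated arrays lay higher at the late time and the P arrays lower. The difference between these time changes, -3.17, was not called (adjusted p = 0.215), though it was called in 3 of 18 alternatives. The PLAT call was lost without P 8 h replicate 1 (adjusted p = 0.0706) and without P 8 h replicate 3 (adjusted p = 0.142). SRSF6, a splicing regulator, had 4.79, 4.77 and 4.48 at 24 h, against 7.66 and 6.65 at 8 h (log2 fold change -2.48, adjusted p = 0.00413). SHCBP1 and TMEM158 fell by 2.32 and 2.26 on the log2 scale. The calls of SRSF6 and TMEM158 were lost without P 8 h replicate 1 (adjusted p = 0.0691 and 0.103). PLAT was the 1 call among 11 tested genes of matrix, integrins and plasminogen activation (9.09%, against 6.13% lower of all tested genes). Outside the lists, and chosen after their values were seen, EZH2, the catalytic subunit of Polycomb repressive complex 2, had a log2 fold change of -2.06, DTL, which targets replication factors for degradation, -2.05, SKP2, the F-box protein that marks p27 for degradation, -1.67 and DNMT1, the maintenance DNA methyltransferase, -1.31.

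Mitosis genes had lower signals at 24 h as a group, with smaller changes than the replication genes. All 37 tested members had negative log2 fold changes under P, as had 61.1% of all tested genes. Of the 37, 15 were called lower (40.5%, against 6.13% of all tested genes) and none higher. Their median was -0.98, or -0.87 after quantile normalization and -0.83 with centred arrays, and in untreated cells it was -0.22. Without P 8 h replicate 1, 8 were called and without P 8 h replicate 3, 4 were. In 36 of the 37 genes all P 24 h arrays lay below all P 8 h arrays, against 37.4% of all tested genes.

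Members of the kinetochore and of the spindle checkpoint were among the falls. NDC80, a core kinetochore protein that binds microtubules, had log2 signals of 5.47, 5.01 and 5.35 on the P 24 h arrays, against 7.40 and 7.14 on the P 8 h arrays (log2 fold change -1.99, SE 0.36, adjusted p = 0.00276). In untreated cells NDC80 had 7.55 and 7.07 at 24 h, against 6.93 and 7.48 at 8 h, with overlapping arrays. The difference between its time changes, -2.10, was not called (adjusted p = 0.136), though it was called in 3 of 19 alternatives. CENPE, the kinetochore kinesin, fell by 1.80, ZWINT by 1.40, and the checkpoint genes TTK, MAD2L1 and BUB1 by 1.62, 1.55 and 1.41 on the log2 scale. NSL1, of the kinetochore complex MIS12, is not in the list and fell by 1.56. BUB1B and BUB3 of the same checkpoint had -0.77 and -0.59 and were not called.

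Genes of the spindle, of mitotic entry and of cell division fell in part. ASPM, a spindle pole protein, had log2 signals of 6.89, 5.57 and 5.89 at 24 h, against 8.15 and 8.17 at 8 h under P (log2 fold change -2.04, SE 0.42, adjusted p = 0.00526). KIF14 and KIF23, kinesins of cytokinesis, had log2 fold changes of -1.73 and -1.51, and ECT2, the exchange factor that starts the cleavage furrow, had -1.20. CDK1, the kinase that drives entry into mitosis, had 7.86, 7.51 and 7.12 at 24 h, against 8.95 and 8.96 at 8 h (log2 fold change -1.45, adjusted p = 0.0016), and its other 2 probe sets gave -1.43 and -1.45. Its cyclins were not called: CCNA2 had -1.24 on its brightest probe set (adjusted p = 0.105), CCNB1 -0.59 and CCNB2 -0.38. The second probe set of CCNA2 had -1.88 and was called (adjusted p = 0.000916), so its probe sets differed in their call. BIRC5, which encodes survivin, a subunit of the chromosomal passenger complex and inhibitor of apoptosis, fell by 1.37 on the log2 scale (adjusted p = 0.0094). CDC20, the activator of the anaphase promoting complex, had -0.15, and its P 24 h arrays (9.29, 9.07 and 9.08) overlapped its P 8 h arrays (9.49 and 9.10).

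The windows of NDC80 and KIF14 are shown as examples, chosen among falling mitosis genes whose window held another short element. They lie at chr18:2571307-2571606 (plus strand) and chr1:200620702-200621001 (minus strand), with the same length and source as above, and the capitals mark TTTGAA, the letters of the cell cycle genes homology region, searched on both strands.
NDC80: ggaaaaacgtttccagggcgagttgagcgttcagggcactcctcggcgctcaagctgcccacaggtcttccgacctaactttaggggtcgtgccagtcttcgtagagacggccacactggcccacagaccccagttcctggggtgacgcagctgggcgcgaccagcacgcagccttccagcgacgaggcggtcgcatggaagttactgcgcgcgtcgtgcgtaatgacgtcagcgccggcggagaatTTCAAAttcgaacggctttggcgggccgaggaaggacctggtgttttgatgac
KIF14: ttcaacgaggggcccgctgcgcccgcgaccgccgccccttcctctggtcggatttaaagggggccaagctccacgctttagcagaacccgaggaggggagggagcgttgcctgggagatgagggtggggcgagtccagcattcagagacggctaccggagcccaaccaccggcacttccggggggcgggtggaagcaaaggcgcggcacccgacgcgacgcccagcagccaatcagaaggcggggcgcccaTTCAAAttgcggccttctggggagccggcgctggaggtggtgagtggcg
Of the 37 tested mitosis genes 28 had a window, and 20 of these (71.4%) held the letters, against 15.4% of all windows and 4.55% of the windows of the tested replication genes. The E2F letters were in 3.57% of the mitosis windows. So short a word occurs often, and its presence says nothing of binding.

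DNA repair genes went in both directions. Of 12 tested, 5 were called lower (41.7%, against 6.13% of all tested genes) and 1 higher (8.33%, against 1.45%), with a median log2 fold change of -0.75. Fewer were called lower without P 8 h replicate 1 (3), without P 8 h replicate 3 (2), without P 24 h replicate 3 (3), with centred arrays (2) and after quantile normalization (3 of 11). The falls were UNG, which removes uracil from DNA (-1.68), FANCI of the Fanconi anaemia pathway (-1.59), RAD51AP1, which assists recombination (-1.22), MSH6, a mismatch recognition protein (-1.14), and XRCC5, which encodes Ku80 of the end-joining pathway (-1.09). XPC, the damage sensor of nucleotide excision repair, had log2 signals of 7.56, 7.64 and 7.35 on the P 24 h arrays, against 6.29 and 5.99 on the P 8 h arrays, a rise of 1.38 (SE 0.29, adjusted p = 0.00652). In untreated cells XPC had 6.21 and 6.21 at 24 h, against 5.66 and 5.77 at 8 h, so its P 24 h arrays were the highest of the 4 groups. The difference between the time changes, 0.88, was not called (adjusted p = 0.406). The XPC call was lost without P 8 h replicate 3 (adjusted p = 0.0865). That of RAD51AP1 was lost in 7 of 14 alternatives, with adjusted p of 0.0703 after quantile normalization, 0.0799 with centred arrays, and 0.0706 and 0.327 without P 8 h replicate 1 and replicate 3.

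XPC was also the 1 called member of the p53 target list, in which 12 genes were tested (8.33%, against 1.45% higher of all tested genes). The list had a median log2 fold change of 0.26 under P and 0.47 in untreated cells. CDKN1A, which encodes the cyclin-dependent kinase inhibitor p21, had log2 signals of 9.82, 9.62 and 9.55 on the P 24 h arrays, against 8.18 and 8.11 on the P 8 h arrays. All 24 h arrays lay above all 8 h arrays, as in 18.2% of all tested genes. The log2 fold change of 1.52 (SE 0.52) had an adjusted p of 0.0579 and was not called. It was called higher in 6 of 16 alternatives, among them the fit of the compared arrays only (adjusted p = 0.00121) and the fit with array weights (adjusted p = 0.00453), and over all 16 the adjusted p ran between 0.00107 and 0.239 and the log2 fold change between 1.44 and 1.67. In untreated cells CDKN1A had 8.72 and 8.20 at 24 h, against 7.87 and 7.70 at 8 h. Of the p53 targets that act in cell death, BAX had 0.89 (adjusted p = 0.053), TNFRSF10B, a TRAIL receptor, 0.42 and PMAIP1, which encodes NOXA, 0.24. TFDP1, the dimerization partner of E2F factors, was the 1 called member of the 7 tested CDK inhibitors and G1 regulators (14.3%, against 6.13% lower of all tested genes). It had 8.22, 8.17 and 8.42 at 24 h, against 9.33 and 9.25 at 8 h (log2 fold change -1.02, adjusted p = 0.0192). CCND1, cyclin D1, had -0.99 under P and -1.0 in untreated cells.

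Genes of the amino acid and integrated stress response had higher signals at 24 h. Of 18 tested, 16 had positive log2 fold changes under P, where 61.1% of all tested genes had negative ones. The list median was 0.69, and 3 were called higher (16.7%, against 1.45% of all tested genes). In untreated cells the median was 0.34, and the median difference between the time changes was 0.14. None of the 3 was called without P 8 h replicate 1 or without P 8 h replicate 3. TRIB3, a pseudokinase induced by this response, had the largest rise among the 32 higher genes, with log2 signals of 10.002, 9.78 and 9.67 on the P 24 h arrays, against 7.78 and 7.57 on the P 8 h arrays (log2 fold change 2.14, SE 0.49, adjusted p = 0.00976). In untreated cells TRIB3 had 7.92 and 7.10 at 24 h, against 5.62 and 6.11 at 8 h, so it stood higher at the late time there too, and the difference between the time changes was 0.50 (SE 0.73, adjusted p = 0.819).

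ASNS, asparagine synthetase, and PHGDH, the first enzyme of serine synthesis, were the other calls. ASNS had log2 signals of 10.66, 10.63 and 10.59 at 24 h, against 8.98 and 9.36 at 8 h under P (log2 fold change 1.45, SE 0.38, adjusted p = 0.0179). PHGDH had 8.18, 8.22 and 8.26 at 24 h, against 6.81 and 6.93 at 8 h (log2 fold change 1.35, SE 0.37, adjusted p = 0.0221). The 3 late arrays of both genes were tight and clear of the early ones. The transcription factors of the pathway were not called: ATF3 had 1.03, ATF5 0.92, CEBPG 0.83, CEBPB 0.67 and ATF4, which is controlled mainly at translation, 0.54. PSAT1, the next enzyme of serine synthesis, had 0.80, and of the amino acid transporters SLC7A5 had 0.97, SLC3A2 0.72, SLC7A11 0.38, SLC38A2 -0.01 and SLC7A1 -0.18.

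Among 9 tested aminoacyl-tRNA synthetases, which charge tRNA with amino acids, AARS1 and SARS1 were called higher (22.2%, against 1.45% of all tested genes) and none lower. AARS1 had log2 signals of 10.72, 10.65 and 10.92 on the P 24 h arrays, against 9.86 and 9.55 on the P 8 h arrays, a log2 fold change of 1.06 (adjusted p = 0.0192). SARS1 had 10.23, 10.24 and 10.28 at 24 h, against 9.19 and 9.27 at 8 h, a log2 fold change of 1.02 (adjusted p = 0.00927). WARS1 had 0.98 at an adjusted p of 0.0307, just under the fold limit, and its second probe set was called with 1.12. Neither AARS1 nor SARS1 was called without P 8 h replicate 1 or without P 8 h replicate 3. HARS1 and LARS1 had negative values, -0.59 and -0.34, with every 24 h array below every 8 h array, as in 37.4% of all tested genes.

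The windows of ASNS and AARS1 are shown for the element that ATF4 is known to bind with C/EBP partners. They lie at chr7:97872359-97872658 and chr16:70289457-70289756, both on the minus strand, and the capitals mark TGATGNAA, searched on both strands.
ASNS: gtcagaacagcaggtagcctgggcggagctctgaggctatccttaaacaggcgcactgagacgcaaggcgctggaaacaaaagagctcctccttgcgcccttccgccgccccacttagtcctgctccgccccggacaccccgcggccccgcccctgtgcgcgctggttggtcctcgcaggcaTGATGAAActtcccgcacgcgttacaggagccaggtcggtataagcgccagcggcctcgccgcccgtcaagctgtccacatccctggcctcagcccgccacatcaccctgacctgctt
AARS1: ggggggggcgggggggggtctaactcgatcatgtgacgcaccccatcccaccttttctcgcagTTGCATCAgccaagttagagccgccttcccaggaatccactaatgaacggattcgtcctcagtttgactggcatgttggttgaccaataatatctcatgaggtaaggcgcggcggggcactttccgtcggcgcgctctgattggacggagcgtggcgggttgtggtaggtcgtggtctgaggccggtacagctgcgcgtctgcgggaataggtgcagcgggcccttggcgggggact
The letters were in 4 of 14 windows of the tested stress response genes and in 2 of 7 windows of the tested synthetases (28.6% each), against 3.67% of all windows and none of the 113 windows of lower genes. The share was 1.84% of the windows of tested genes and 10.7% of those of the higher genes. ATF3, SLC3A2, SLC7A1 and CARS1 held a match and were not called. TRIB3, PHGDH and SARS1, which were called higher, had no match in their windows.

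Genes that respond to nutrients and energy rose in part, and untreated cells moved the same way. Of 8 tested, TXNIP and BTG1 were called higher (25%, against 1.45% of all tested genes). The list had a median log2 fold change of 0.85 under P and 0.86 in untreated cells. TXNIP, a glucose-regulated inhibitor of thioredoxin and of glucose uptake, had log2 signals of 8.82, 8.59 and 8.40 on the P 24 h arrays, against 6.65 and 7.47 on the P 8 h arrays (log2 fold change 1.55, SE 0.50, adjusted p = 0.0477). In untreated cells TXNIP had 7.12 and 6.60 at 24 h, against 4.40 and 5.07 at 8 h. The P arrays stood above the untreated arrays at each time, and the call was lost in 7 of the alternatives, among them each fit that left out 1 P array. BTG1, an antiproliferative cofactor of mRNA decay, had 10.004, 9.62 and 9.34 at 24 h, against 8.27 and 8.32 at 8 h under P (log2 fold change 1.36, SE 0.30, adjusted p = 0.00799), while its second probe set had 0.70 and was not called. IRS2, an adaptor of the insulin receptor, had 1.35 (adjusted p = 0.089) under P and 1.33 in untreated cells.

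DDIT4, which stress induces and which holds back mTORC1, stood above its untreated level at 8 h already. That difference at 8 h was called (limma, adjusted p = 1.82e-05). Its log2 signals were 8.58, 8.52 and 8.68 on the P 24 h arrays, against 7.73 and 7.72 on the P 8 h arrays, and the log2 fold change of 0.87 (SE 0.42, adjusted p = 0.166) was not called. Untreated cells had 8.39 and 6.65 at 24 h, against 2.35 and 2.79 at 8 h, where the gene was near background, and this rise was called (adjusted p = 3.23e-05). At 24 h the untreated array of replicate 1 was close to the P arrays.

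BNIP3L, a receptor for the removal of mitochondria that hypoxia induces, was the 1 call among 14 genes of glycolysis and the hypoxia response (7.14%, against 1.45% higher of all tested genes). It had log2 signals of 7.65, 7.32 and 7.54 at 24 h, against 5.78 and 6.13 at 8 h under P (log2 fold change 1.55, SE 0.40, adjusted p = 0.0176). The BNIP3L call was lost in 4 of 15 alternatives, with adjusted p of 0.13 and 0.0815 without P 8 h replicate 1 and replicate 3, 0.054 without P 24 h replicate 3 and 0.0678 with no filter. SQSTM1, the autophagy receptor p62, had 11.59, 10.76 and 11.43 at 24 h, against 10.39 and 10.24 at 8 h (log2 fold change 0.94, adjusted p = 0.0254), just short of the fold limit. The dimmer second probe set of SQSTM1 had 2.32 and was called, so the probe sets of this gene differed in size. MXI1, a MYC antagonist, rose by 1.50 on the log2 scale (adjusted p = 0.00572) and CCDC85B, which was reported to repress transcription, by 1.64 (adjusted p = 0.0033). VPS28, a subunit of the sorting complex ESCRT-I, rose by 1.37 (adjusted p = 0.00569).

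**Figure D3:**
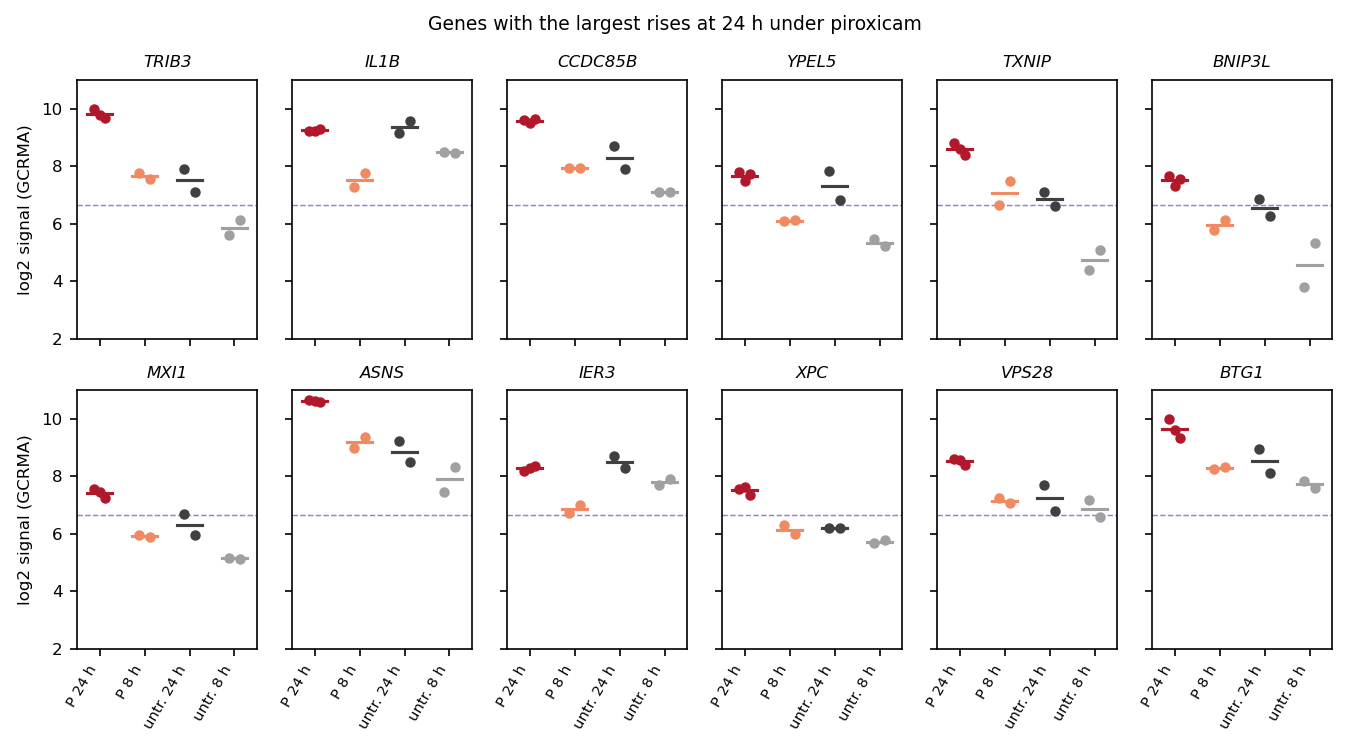
Log2 signal of the 12 genes with the largest called rises between P 24 h and P 8 h, 1 point per array and a bar at the mean of each group (P 24 h, P 8 h, untreated 24 h, untreated 8 h), with the dashed line at a signal of 100. All P 24 h arrays lie above all P 8 h arrays in each panel, and the untreated means are higher at 24 h than at 8 h as well.

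Inflammatory genes had positive values throughout. All 8 tested chemokines and inflammatory cytokines had positive log2 fold changes under P, where 61.1% of all tested genes had negative ones. Their median was 0.75, against 0.36 in untreated cells. In 7 of them all 24 h arrays lay above all 8 h arrays, as in 18.2% of all tested genes. IL1B, interleukin 1 beta, was the 1 called (12.5% of the list, against 1.45% of all tested genes), with log2 signals of 9.22, 9.23 and 9.28 on the P 24 h arrays, against 7.28 and 7.75 on the P 8 h arrays (log2 fold change 1.73, SE 0.27, adjusted p = 0.00138), and its second probe set was called with 1.37. Untreated cells had 9.17 and 9.56 at 24 h, against 8.50 and 8.46 at 8 h. At 24 h the P arrays were thus at the untreated level and at 8 h they were below it. CXCL3 and CXCL2, chemokines that attract neutrophils, had 1.15 and 0.78 and were not called, and NFKBIA, the inhibitor that NF-kappaB induces, had 0.71. IER3, an immediate-early gene, showed a pattern like that of IL1B, with 8.18, 8.28 and 8.36 at 24 h, against 6.70 and 6.98 at 8 h under P (log2 fold change 1.43, SE 0.28, adjusted p = 0.00427), and 8.70 and 8.30 at 24 h, against 7.68 and 7.90 at 8 h in untreated cells. It was the 1 call among 13 tested immediate-early and ERK feedback genes (7.69%, against 1.45% higher of all tested genes), of which MYC had -0.04 and JUN 0.03.

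The known targets of the drug had signals near background. PTGS1 and PTGS2, the cyclooxygenases, had mean log2 signals of 2.11 and 2.06 at 24 h, against 2.17 and 2.13 at 8 h under P, and both lay outside the tested set. Of 20 listed genes of prostaglandin synthesis and its receptors, 2 were tested and none was called. PTGES3, a cochaperone also known as cytosolic prostaglandin E synthase, had -0.41 and CBR1, a carbonyl reductase that also acts on prostaglandin E2, -0.37.

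Of 7 tested sterol and lipid genes 1 was called lower (14.3%, against 6.13% of all tested genes). All 7 had negative log2 fold changes under P, as had 61.1% of all tested genes. Their median was -0.47 under P (-0.32 with centred arrays) and 0.47 in untreated cells. The difference between the time changes was called for none of them. IDI1, an isomerase of the mevalonate pathway, was the 1 called, with log2 signals of 6.17, 5.51 and 6.03 on the P 24 h arrays, against 7.70 and 7.65 on the P 8 h arrays (log2 fold change -1.77, SE 0.49, adjusted p = 0.0254), and its second probe set had -1.64. In untreated cells IDI1 had 8.21 and 8.98 at 24 h, against 8.00 and 7.91 at 8 h. The difference between its time changes was -2.41 with an adjusted p of 0.21, and it was called in 3 of 20 alternatives. The IDI1 call was lost in 5 of 16 alternatives, with adjusted p of 0.12 and 0.139 without P 8 h replicate 1 and replicate 3, 0.0776 and 0.057 without P 24 h replicate 2 and replicate 3, and 0.0959 with no filter. MSMO1, a C4-methyl sterol oxidase, had -0.61, SCD, stearoyl-CoA desaturase, -0.56 and FDPS, farnesyl diphosphate synthase, -0.47, none of them called.

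Of 28 tested splicing factors 3 were called lower (10.7%, against 6.13% of all tested genes), SRSF6, HNRNPA3 (log2 fold change -1.32) and SF3A3, a subunit of the U2 particle (-1.08), and the median was -0.46 (-0.30 with centred arrays). HNRNPA3 had log2 signals of 7.81, 7.84 and 7.92 at 24 h, against 9.16 and 9.19 at 8 h under P, and 9.53 and 9.33 at 24 h, against 9.16 and 9.13 at 8 h in untreated cells. The difference between its time changes, -1.60, was not called (adjusted p = 0.111), though it was called in 3 of 20 alternatives. Of 15 cytosolic and mitochondrial chaperones HSPE1, the mitochondrial cochaperonin, was called lower (-1.02, which is 6.67% of that list and near the share of all tested genes). Of 8 genes of the unfolded protein response MANF, an endoplasmic reticulum stress factor, was called lower (-1.10, which is 12.5% of that list). The list medians were -0.50 and 0.07. The calls of SF3A3, HSPE1, MANF and TFDP1 were lost both after quantile normalization and with centred arrays. No member was called among 19 translation initiation factors, 18 proteasome subunits, 17 oxidative phosphorylation subunits, 13 ribosome biogenesis genes, 13 genes of lysosome and autophagy, 13 genes of the NRF2 response, 9 genes of the BCL2 family, death receptors and caspases, 8 YAP and TGF-beta response genes and 5 interferon-stimulated genes, with each gene taken at its brightest probe set. In these lists the medians under P lay between -0.31 (proteasome) and 0.52 (interferon). Histone and ribosomal protein genes gave 1 tested member each, H2BC12 with -1.0 and RPS27 with 0.19, neither called.

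**Figure D4:**
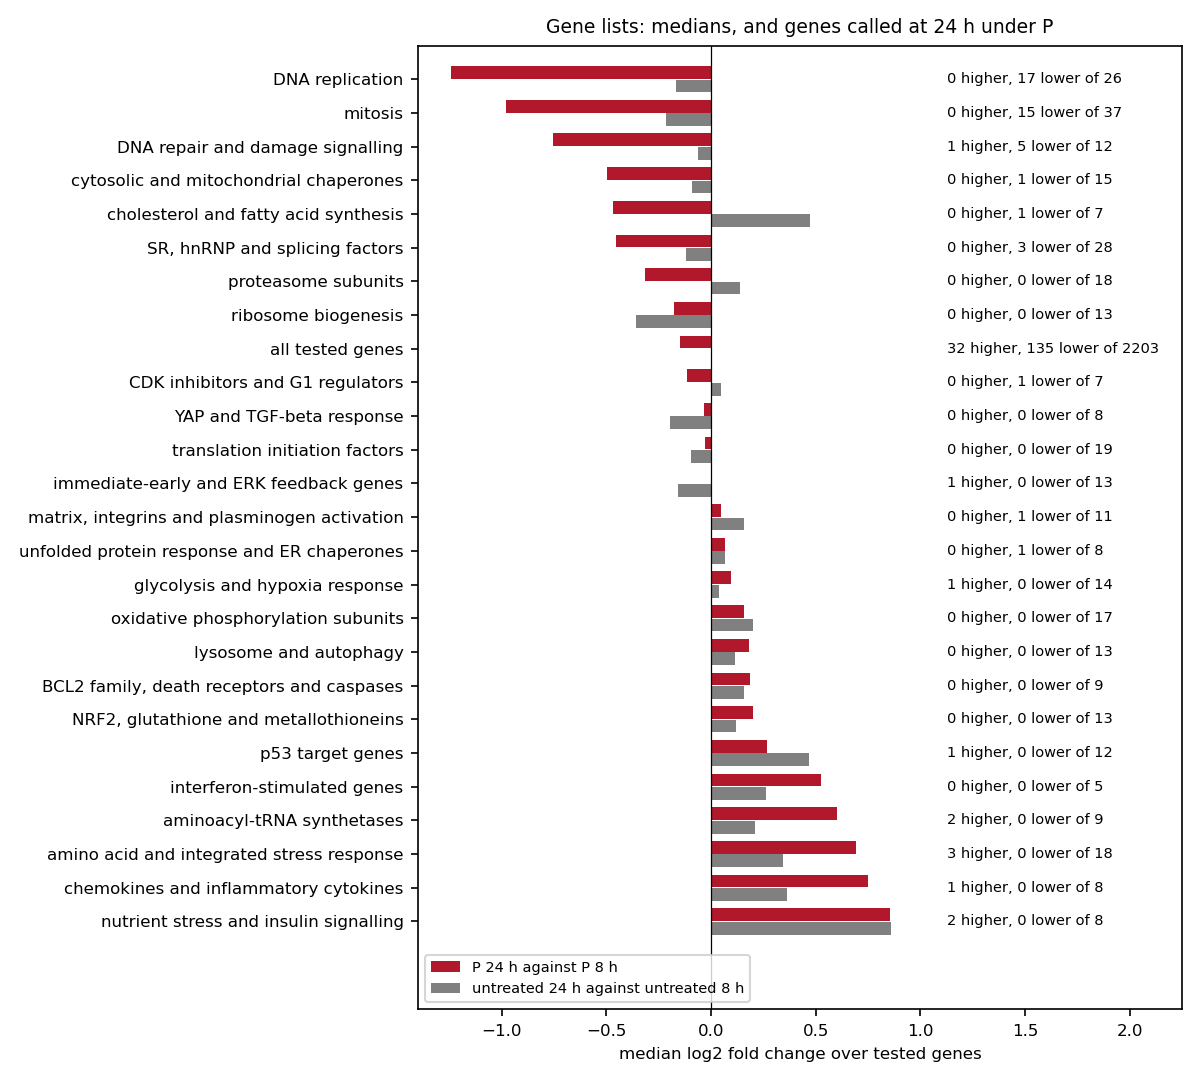
Median log2 fold change of each gene list with at least 5 tested genes, for P 24 h against P 8 h (upper bar of each pair) and untreated 24 h against untreated 8 h (lower bar), with the number of genes called under P at the right. DNA replication (-1.24) and mitosis (-0.98) have the lowest medians under P, and the nutrient stress list has 0.85 under P and 0.86 in untreated cells.

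In untreated cells few changes with time reached the limits. Between untreated 24 h and untreated 8 h, 3 of 3057 probe sets were called (0.0981%), all higher, namely DDIT4, YPEL5 and 1 probe set without a single gene name. At an unadjusted p under 0.05 there were 170. YPEL5 rose with time under P and without drug, with log2 signals of 7.80, 7.48 and 7.73 at 24 h, against 6.08 and 6.13 at 8 h under P, and 7.83 and 6.81 at 24 h, against 5.46 and 5.22 at 8 h in untreated cells. Its log2 fold changes were 1.57 under P and 1.98 in untreated cells. The changes with time under P and in untreated cells, which come from separate arrays, had a Pearson r of 0.42 across the 2203 genes, and genes do not count as independent replicates. The 32 genes higher under P had a median of 1.30 under P and 0.48 in untreated cells, where 29 had the same sign and 6 had at least 1. The 135 genes lower under P had -1.29 under P and -0.27 in untreated cells, where 113 had the same sign and 1 (RGS4) had at least 1 in size. For comparison, 50.4% of all tested genes had a positive value and 49.6% a negative value in untreated cells. The genes were chosen by their values under P, so the smaller medians in untreated cells are a description.

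The difference between the time changes, P minus untreated, was tested for every probe set. It was called for 6 (0.196%), all lower, and 387 had an unadjusted p under 0.05. RFC5, the clamp loader subunit, had log2 signals of 6.24, 6.54 and 6.28 on the P 24 h arrays, against 8.38 and 8.29 on the P 8 h arrays, and 8.28 and 8.68 at 24 h, against 8.39 and 8.70 at 8 h in untreated cells (difference -1.91, adjusted p = 0.048). NSL1 had 6.03, 5.38 and 5.56 at 24 h, against 7.19 and 7.24 at 8 h under P, and 6.94 and 7.21 at 24 h, against 6.39 and 6.75 at 8 h in untreated cells (difference -2.06, adjusted p = 0.048). In both genes the P 24 h arrays were the lowest of the P and untreated arrays. The P/C 24 h arrays stood low as well. They had 7.32 and 6.78 for RFC5, against 7.86 and 8.47 on the P/C 8 h arrays. For NSL1 they had 5.71 and 6.05, against 6.42 and 7.21. The difference for DDIT4 was -4.08 (adjusted p = 0.021). Its untreated arrays were near background at 8 h and rose by 24 h, while its P arrays stood high at 8 h already.

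The other 3 differences were on probe sets that are not the brightest of their gene. MCM4 had -2.29 on its second probe set (adjusted p = 0.049) and -2.04 on its first (adjusted p = 0.11). PSMD12, a subunit of the proteasome cap, had 3.75, 3.89 and 3.57 on the P 24 h arrays, against 6.48 and 6.50 on the P 8 h arrays, and 7.46 and 7.73 at 24 h, against 7.78 and 7.90 at 8 h in untreated cells (difference -2.51, adjusted p = 0.048). Its brighter probe set had -0.35 (adjusted p = 0.72). SUB1, a coactivator of RNA polymerase II, had 3.11, 2.42 and 2.52 at 24 h, against 6.56 and 6.99 at 8 h under P, and 7.21 and 6.81 at 24 h, against 7.25 and 7.84 at 8 h in untreated cells (difference -3.55, adjusted p = 0.048), while its brighter probe sets had -0.49 and -0.70. The dim probe sets of both genes ended near background, and their brighter probe sets did not show a fall of that size. Leaving out either P 8 h array, either untreated 8 h array, untreated 24 h replicate 1, P 24 h replicate 2 or P 24 h replicate 3 left no difference called, while there was 1 when untreated 24 h replicate 2 was dropped and 4 when P 24 h replicate 1 was. The count was 1 after quantile normalization and 49 when only the arrays of these 4 groups were fitted, so no list of genes particular to piroxicam is drawn from it.

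**Figure D5:**
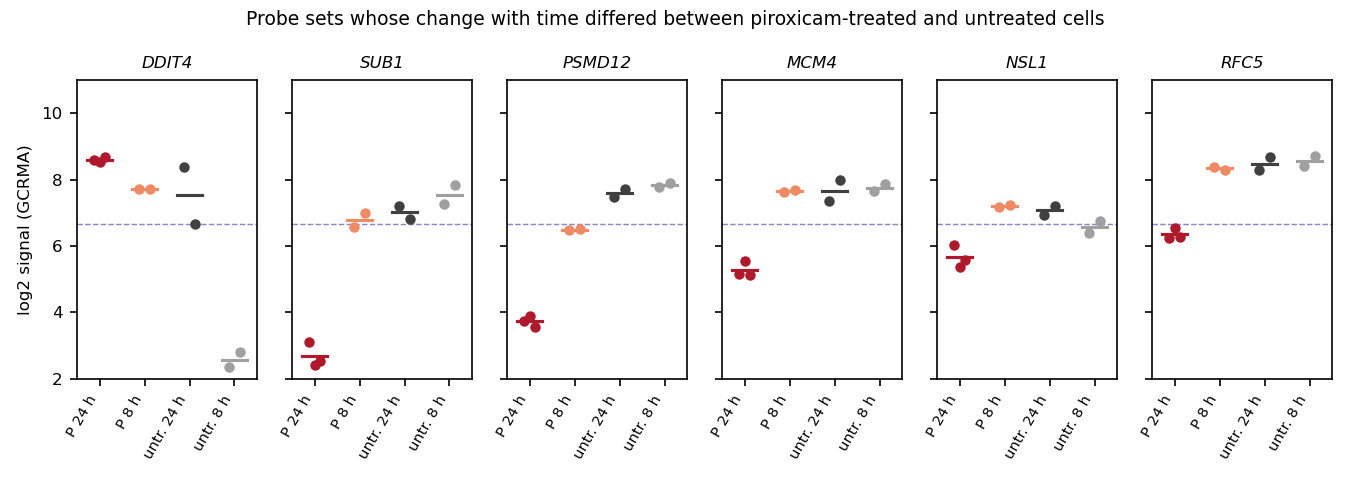
Log2 signal of the 6 probe sets whose change with time was called different between piroxicam-treated and untreated cells, 1 point per array and a bar at the mean of each group (P 24 h, P 8 h, untreated 24 h, untreated 8 h), with the dashed line at a signal of 100. In 5 panels the P 24 h arrays are the lowest, and in the DDIT4 panel the untreated 8 h arrays are, at 2.35 and 2.79.

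The same genes were followed under the other treatments, with and without the replicate 1 arrays of C 24 h and P/C 24 h. Values without P/C 24 h replicate 1 rest on 1 array at 24 h. The 32 higher genes had a median log2 fold change of 0.98 between C 24 h and C 8 h, or 1.05 without C 24 h replicate 1, and of 0.90 between P/C 24 h and P/C 8 h, or 1.36 without P/C 24 h replicate 1. The 135 lower genes had -0.59 with C, or -0.67 without that array, and -0.71 with P/C, or -1.08 without that array. Across all tested genes the medians were -0.12 with C and -0.05 with P/C. For the replication genes the median was -1.24 with P, -0.38 with C and -0.64 with P/C, and for the mitosis genes it was -0.98 with P, -0.39 with C and -0.88 with P/C. Without the replicate 1 arrays the P/C medians were -0.99 for replication and -1.34 for mitosis. The difference between the time changes of P and C was called for none of 3057 probe sets (0%, limma, 244 at an unadjusted p under 0.05, smallest adjusted p = 0.0745). It was called for 18 when only the arrays of the comparison were fitted, for 59 with array weights and for 54 without both replicate 1 arrays.

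At 8 h, 15 probe sets were called between P and untreated cells (0.491%), that of DDIT4 among them, and their genes did not go on as 1 group. RGS4, a regulator of G protein signalling, had log2 signals of 3.50, 3.46 and 3.17 on the P 24 h arrays, against 5.50 and 4.66 on the P 8 h arrays, and ended near background (log2 fold change -1.70, adjusted p = 0.0288). This call was lost in 7 of 14 alternatives, among them each fit without 1 P array (adjusted p between 0.0505 and 0.222). Untreated cells had 5.50 and 7.49 at 24 h, against 8.42 and 7.94 at 8 h. RBM25, RBBP6 and TRIM16, which at 8 h were lower with P than in untreated cells, had positive values afterwards of 0.52, 0.60 and 0.83 under P, and none was called. TRIM16, for example, had 6.14, 6.32 and 6.43 at 24 h, against 5.37 and 5.58 at 8 h under P, and 6.96 and 6.70 at 24 h, against 7.04 and 6.75 at 8 h in untreated cells, so the P arrays came nearer to the untreated ones. PRP4K, a kinase of the spliceosome, was low under P at both times, with 5.11, 4.35 and 5.50 at 24 h, against 5.32 and 5.56 at 8 h under P, and 7.37 and 7.64 at 24 h, against 7.88 and 8.17 at 8 h in untreated cells. CEBPG and PSAT1, higher with P at 8 h, had 0.83 and 0.80 under P and 0.84 and 1.16 in untreated cells. The comparisons with untreated cells at 8 h share the P 8 h arrays with the time comparison, so the values stand side by side and are not set against each other in a test.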

How the data were processed

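RNA from MSTO-211H cells was hybridised to 18 HGU133A arrays, which are 1-colour. The authors computed probe set values with GCRMA and deposited them as log2 values, which were used as they stand. No version of GCRMA is named in the sources used here. Of 22283 probe sets, 68 Affymetrix controls were left out, 10388 had an interquartile range of at least 0.25 over all arrays, and 3057 of these also reached a signal of 100 on 25% of the arrays or more. These limits follow the study's methods and kept another number of probe sets here than the study states. In the platform annotation 19071 probe sets had 1 gene symbol, 1043 several and 2169 none, and only those with 1 symbol were named. The 3057 included 2750 with 1 symbol, for 2203 genes.

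Groups came from the sample titles. A linear model with 1 mean for each group was fitted over all 18 arrays (limma 3.58.1, R 4.3.3) with moderated variances and Benjamini-Hochberg adjustment over the 3057 probe sets. It gave P 24 h minus P 8 h, the same change in untreated and cisplatin-treated cells, and the differences between these changes. The fit was run on simulated data with independent noise on each array. Of simulated log2 changes of 1.5 at P 24 h it called 86.3% for P 24 h against P 8 h. For the difference from untreated cells it called 58.7%. Each run changed 200 of 3057 probe sets, whereas the real data gave 6 calls for this difference, so the share need not hold there. Of the unchanged probe sets a mean of 8.4 per run was called for the difference, and 4.05 for P 24 h against P 8 h. The simulation left out the deviations that arrays of the same number share, so it cannot show how the fit behaves under them. The number of arrays, 3 against 2, limits the precision, and the median SE of the P change was 0.263. Gene lists were described by counts and medians, with no test of a list.

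The members and lists were chosen with earlier results of these data known. Named genes were the 12 largest rises and the 12 largest falls among called genes whose arrays did not overlap, genes called for the difference from untreated cells, up to 4 called members of each list (or its 2 brightest where none was called), genes called at 8 h against untreated cells, and CDKN1A, PTGS1 and PTGS2. Other list members are given to complete a group. Promoter windows are RefSeq's on GRCh38.p14. Alternatives were quantile normalization, centred arrays, other filters, a fit of the compared arrays only, array weights, an intensity trend, a replicate block, each array left out, and, chosen after seeing the data, a replicate block within each time and the fit without the replicate 1 arrays of C 24 h and P/C 24 h. The gene for p53 itself is not reported here.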

Additional observations from a re-analysis of the deposited data

Results flagged for a closer look

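For 6 probe sets the change with time passed the test of the difference between piroxicam-treated and untreated cells (limma, adjusted p between 0.0205 and 0.0495). The log2 differences, P minus untreated, were -4.079 for DDIT4, -3.551 for SUB1, -2.511 for PSMD12, -2.291 for the second probe set of MCM4, -2.061 for NSL1 and -1.913 for RFC5. DDIT4 was near background in untreated cells at 8 h, and the probe sets of SUB1 and PSMD12 were near background under P at 24 h, so the sizes of these 3 are not read. The brighter probe sets of SUB1 and PSMD12 went through the same test and did not show a difference of that size. The cause of this was not tested.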

How the results depend on the processing

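For P 24 h against P 8 h, 259 probe sets were called, 156 with a signal minimum of 200, where fewer probe sets were tested, and 88 to 254 with 1 array left out (131 without P 8 h replicate 1, 88 without P 8 h replicate 3). No probe set called for P was called the other way in any alternative. For untreated cells the count was 3, with 1 at a signal minimum of 200, 10 with the replicate block, 7 with a replicate block within each time, 6 without the replicate 1 arrays of C 24 h and P/C 24 h, and 1 to 4 with 1 array left out. For the difference from untreated cells it was 6, with 1 after quantile normalization, with centred arrays, with the intensity trend and with the replicate block, 2 with the block within each time, 0 with no filter, 49 with only the arrays of the comparison, 44 with array weights, 59 without the 2 replicate 1 arrays, and 0 to 4 with 1 array left out. For the difference between P and C it was 0, with 1 with centred arrays, at a signal minimum of 200, with the intensity trend and with the replicate block, 3 with the block within each time, 18 with only the arrays of the comparison, 59 with array weights, 54 without the 2 replicate 1 arrays, and 0 to 1 with 1 array left out. The cause was not tested. The replicate numbers did not pair P 24 h with P 8 h arrays, whose deviations from the group means correlated at -0.261 for replicate 1 and 0.0623 for replicate 3. Arrays of 8 h with the same number did deviate together across groups (0.203 to 0.66, with 2 numbers a group), and those of 24 h in part (-0.223 to 0.393). With the replicate block 298 probe sets were called for P, and with a block within each time, chosen after seeing the data, 285, among them all 259. That block cannot separate what the arrays of a time share from the time itself. Of 43 called genes among the 75 named by the rule, 17 kept their call in every alternative and 26 lost it in at least 1.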
